A study of Mus musculus with 8 samples.

Results

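Skeletal muscle sarcomere genes were followed in bulk RNA sequencing of mouse sciatic nerve at postnatal day 6. The 41 genes were taken by symbol from the 55487 genes of the estimated count table, and all 41 were found and had enough counts to be tested. They cover the contractile filaments of striated muscle, the calcium release apparatus and muscle-specific energy metabolism. For the fibre type description they were divided into 13 fast fibre genes, 7 slow fibre genes, 2 myosin heavy chains of developing muscle, 11 thin filament and Z-disc genes shared by fibre types, 2 genes of excitation-contraction coupling and 6 genes of metabolism. The study compared 4 libraries from conditional knockout nerves (CNP-Cdk7cKO, genotype CNPcre/+ Cdk7lox/lox) with 4 libraries from control nerves (Ctrl, genotype CNP+/+ Cdk7lox/lox). Both groups carried the floxed Cdk7 alleles. Cre was driven by Cnp, a gene of myelin-forming glia, so as to inactivate Cdk7 in Schwann cells, and knockout animals also carried the Cre allele of Cnp, which controls lacked. Whether the 8 libraries come from 8 separate animals is not stated in the labels, and p-values here take in only the spread among the libraries, part of which may be technical.

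A skeletal muscle fibre contracts when myosin heavy chains of the thick filament pull on actin of the thin filament. Troponin and tropomyosin on the thin filament make this depend on calcium, which the ryanodine receptor releases from the sarcoplasmic reticulum. Fast fibres and slow fibres use different genes for most of these parts, and newly formed fibres use embryonic and neonatal myosins before the adult ones. The sciatic nerve runs between the muscles of the hindlimb and is itself built of axons, Schwann cells, connective tissue and vessels, so muscle fibres are not among its own cell types.

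Promoters of 4 of the genes are shown as examples of windows that hold a MEF2 or CArG box, from the actin of all fibres (Acta1), a fast myosin (Myh4), a neonatal myosin (Myh8) and a slow light chain (Myl3). Each sequence runs from 250 bases before to 50 bases after the start site in the RefSeq table for GRCm38.p6, and capitals mark matches to 3 motifs of muscle promoters, the E-box CANNTG, the MEF2 box and the CArG box, each of which reads alike on both strands.
Acta1, chr8:123894726-123895025, minus strand: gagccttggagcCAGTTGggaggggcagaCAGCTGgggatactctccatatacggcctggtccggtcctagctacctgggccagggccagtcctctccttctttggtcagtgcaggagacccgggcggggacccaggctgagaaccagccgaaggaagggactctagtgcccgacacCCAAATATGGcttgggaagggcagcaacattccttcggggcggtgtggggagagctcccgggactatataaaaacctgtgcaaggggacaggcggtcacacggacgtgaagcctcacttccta
Myh4, chr11:67237562-67237861, plus strand: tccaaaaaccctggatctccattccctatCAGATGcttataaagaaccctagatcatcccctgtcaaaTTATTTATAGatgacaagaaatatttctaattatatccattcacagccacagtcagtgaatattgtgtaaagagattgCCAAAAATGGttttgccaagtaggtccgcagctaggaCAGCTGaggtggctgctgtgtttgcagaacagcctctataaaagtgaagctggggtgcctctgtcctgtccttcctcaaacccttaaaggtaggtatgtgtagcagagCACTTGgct
Myh8, chr11:67276874-67277173, plus strand: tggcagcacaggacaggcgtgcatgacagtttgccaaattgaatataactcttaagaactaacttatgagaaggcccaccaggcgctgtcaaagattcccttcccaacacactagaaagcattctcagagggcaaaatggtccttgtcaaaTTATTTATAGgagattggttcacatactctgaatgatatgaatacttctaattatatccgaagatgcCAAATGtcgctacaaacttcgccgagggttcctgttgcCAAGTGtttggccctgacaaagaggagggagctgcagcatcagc
Myl3, chr9:110763428-110763727, plus strand: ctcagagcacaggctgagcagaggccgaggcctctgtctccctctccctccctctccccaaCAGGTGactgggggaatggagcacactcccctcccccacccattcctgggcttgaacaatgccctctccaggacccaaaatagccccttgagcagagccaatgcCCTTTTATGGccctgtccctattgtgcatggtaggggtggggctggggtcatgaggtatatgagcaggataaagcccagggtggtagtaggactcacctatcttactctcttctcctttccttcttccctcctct
The Acta1 window held a CArG box, CCAAATATGG, 73 bases before the start site. In Myh4 and Myh8 the same MEF2 box, TTATTTATAG, lay 182 bases and 99 bases before the start site, and Myh4 also held a CArG box, CCAAAAATGG, at 104 bases. Myl3 held the CArG box CCTTTTATGG 85 bases before its start site. Of the 41 genes, 32 had a window in the table and 9 were not listed there. Some genes had several windows, which can overlap, and the overlapping windows of Ldb3 held the same CArG box, counted in each. Among the 39 windows of these genes, 6 held a MEF2 box (15.4%, against 3.19% of all 32851 windows), 5 held a CArG box (12.8%, against 1.63%) and 33 held an E-box (84.6%, against 72.3%). Either a MEF2 or a CArG box was in 10 windows (25.6%, against 4.74%), so the 4 shown are not typical. The slow genes Myh7, Myl2, Tnnt1, Tnni1 and Tnnc1 held neither, and nor did the fast genes Myh2, Myl1, Mylpf, Tnnc2, Atp2a1 and Casq1. A match is a description of the letters and not a binding site.

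The 6 myosin heavy chain genes of the list are close copies of each other, which bears on how far their counts can be told apart. Myh3, Myh2, Myh1, Myh4 and Myh8 lie in a row on chromosome 11 between 67078300 and 67308634, and Myh7 lies on chromosome 14 from 54970684 to 54994626 (GRCm38, GENCODE M21). A stretch of 60 coding bases is shown where they differ, with the fast gene Myh4 in lower case and, in the other genes, capitals at bases unlike Myh4.
Myh4, chr11:67248692-67248751, plus strand: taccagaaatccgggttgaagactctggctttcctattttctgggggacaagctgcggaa
Myh1, chr11:67209099-67209158, plus strand: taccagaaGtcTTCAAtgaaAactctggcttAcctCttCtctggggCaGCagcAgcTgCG
Myh2, chr11:67181281-67181340, plus strand: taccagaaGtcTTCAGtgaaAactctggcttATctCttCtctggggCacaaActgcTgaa
Myh8, chr11:67289773-67289832, plus strand: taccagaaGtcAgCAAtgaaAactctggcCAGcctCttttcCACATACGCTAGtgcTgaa
Myh3, chr11:67089064-67089123, plus strand: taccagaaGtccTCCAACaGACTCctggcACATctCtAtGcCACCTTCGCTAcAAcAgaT
Myh7, chr14:54987225-54987284, minus strand: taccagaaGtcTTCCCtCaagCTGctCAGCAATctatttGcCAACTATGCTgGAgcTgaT
In this stretch 17 bases of Myh1, 14 of Myh2, 23 of Myh8, 34 of Myh3 and 32 of Myh7 were unlike Myh4. Over the whole coding sequence, identity with Myh4 was 90.1% for Myh1, 88.2% for Myh2, 87.9% for Myh8, 80.3% for Myh3 and 77.4% for Myh7. Of all runs of 50 bases in their transcripts, 25.4% in Myh1, 26.9% in Myh2, 18.9% in Myh4, 16.7% in Myh8 and 4.76% in Myh3 also occurred in another gene, foremost in another of these myosins for the first 4 and in Myh13 for Myh3. For Myh7 this share was 21.2%, mainly with the cardiac gene Myh6. The split of counts among the 4 closest genes (Myh1, Myh2, Myh4 and Myh8) is therefore uncertain, and so is that of Myl1, with 16% of its runs shared with the pseudogene Mylf-ps.

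Library totals lay between 16897242 estimated counts (Ctrl 1) and 21527891 (Ctrl 3), and levels are given in CPM, counts relative to library size after scaling by trimmed mean of M values. Cdk7, the targeted kinase gene, had 9.62 to 12.7 CPM in CNP-Cdk7cKO and 20.6 to 22.2 CPM in Ctrl (log2 fold change -0.89 ± 0.09, SE; edgeR adjusted p = 0.000181). Cnp had 1314 to 1454 CPM in CNP-Cdk7cKO and 2981 to 3312 CPM in Ctrl. The libraries were not balanced for sex. Xist, the RNA of the inactive X chromosome, had 281 to 331 CPM in the 4 CNP-Cdk7cKO libraries and 305 CPM in Ctrl 1, but at most 0.103 CPM in Ctrl 2, Ctrl 3 and Ctrl 4. The Y-linked genes Ddx3y, Uty, Kdm5d and Eif2s3y summed to at most 0.199 CPM (on raw library size) in those 5 libraries and to 92.3 to 106 CPM in Ctrl 2 to 4. By these genes all CNP-Cdk7cKO libraries and Ctrl 1 were female and Ctrl 2 to 4 male, so the main results are given also with sex as a covariate and in the female libraries alone. As no knockout library was male, both settings compare the 4 CNP-Cdk7cKO libraries with Ctrl 1 as the only control and give the same fold changes, apart from rounding and filtering, while the covariate fit takes its spread from all 8 libraries.

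Muscle transcripts were found in every library, and their amount varied widely within each group. Summed over the 41 genes they reached 531, 1073, 269 and 435 CPM in CNP-Cdk7cKO 1 to 4, against 946, 2909, 2069 and 8264 CPM in Ctrl 1 to 4. As a share of all counts that is 0.0543%, 0.108%, 0.0275% and 0.0441% in CNP-Cdk7cKO 1 to 4, against 0.0915%, 0.287%, 0.205% and 0.808% in Ctrl 1 to 4. Ctrl 4 stood highest, CNP-Cdk7cKO 3 lowest, and CNP-Cdk7cKO 2 above Ctrl 1, so the sums of the groups overlapped. Means were 577 ± 348 CPM in CNP-Cdk7cKO and 3547 ± 3246 CPM in Ctrl (SD, n = 4 each). In whole-tissue RNA, fewer muscle fibres and less RNA per fibre cannot be told apart. Muscle taken along with the nerve at dissection may differ between libraries, and its part in these sums was not tested.

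**Figure D1:**
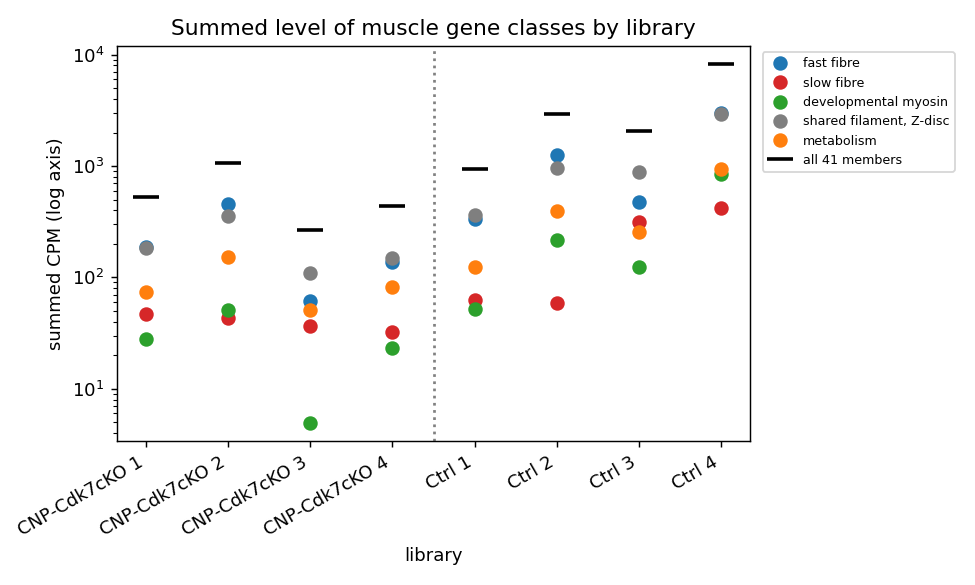
Summed CPM (log axis) of each class of muscle genes, as dots, and of all 41 genes, as black dashes, in each library, with the 4 CNP-Cdk7cKO libraries left of the dotted line and the 4 Ctrl libraries right of it. The pair of excitation-contraction coupling genes is not drawn apart. The highest dash is Ctrl 4 at 8264 CPM and the lowest CNP-Cdk7cKO 3 at 269 CPM, and slow fibre genes are high in Ctrl 3 and Ctrl 4 only.

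The highest library was the same for all of the genes, while the lowest control and the order of Ctrl 2 and Ctrl 3 varied. Ctrl 4 had the highest CPM of the 8 libraries for all 41 genes. Within CNP-Cdk7cKO, library 2 was highest for 34 genes and library 3 lowest for 30. Within Ctrl the lowest value was in Ctrl 1 for 26 genes, in Ctrl 2 for 10 and in Ctrl 3 for 5.

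Between the groups, 35 of the 41 genes were lower in CNP-Cdk7cKO and 0 higher (edgeR quasi-likelihood test, Benjamini-Hochberg adjusted p under 0.05 over all 15056 genes tested). Over all genes tested, 6.6% were called lower and 5.07% higher. The median log2 fold change of the 41 genes was -2.73, against 0.003 over all genes tested. DESeq2 also called 35 lower (7.59% of all genes tested) and 0 higher, and limma-voom called 10 lower (6.66%) and 0 higher. At an unadjusted p under 0.05 edgeR had 40 lower and 0 higher, and the share of all genes at that cut was not computed. All 4 CNP-Cdk7cKO values lay below all 4 Ctrl values for 19 genes (9.51% of all genes tested), and another 16 were called lower although the groups overlapped. The 6 genes not called were Myh4, Pvalb, Actn3, Casq2, Eno3 and Pygm.

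Few of these calls held against Ctrl 1 alone, the 1 female control. With sex as a covariate, in effect 4 knockout libraries against Ctrl 1, 0 of the 41 genes were called by edgeR (1.1% of all genes tested were called lower), 7 had an unadjusted p under 0.05, all lower in CNP-Cdk7cKO, and the median log2 fold change was -0.96. Those 7 were Myh1, Myh2, Myh3, Mb, Lmod2, Myot and Tcap, and no share over all genes at that cut was computed to set beside them. In the female libraries alone the median was the same by design, and the lone control was there assumed to vary like the knockout libraries. Ctrl 1, the female control, lay above all 4 CNP-Cdk7cKO libraries for 22 of the 41 genes, with 26.3% of all genes tested as the background. This was so for 9 of 11 filament and Z-disc genes, 6 of 7 slow fibre genes, 3 of 6 metabolism genes, 1 of 2 developmental myosins, 3 of 13 fast fibre genes and neither coupling gene. The part of sex in the difference between the groups cannot be told apart from that of Ctrl 2 to 4 as libraries.

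**Figure D2:**
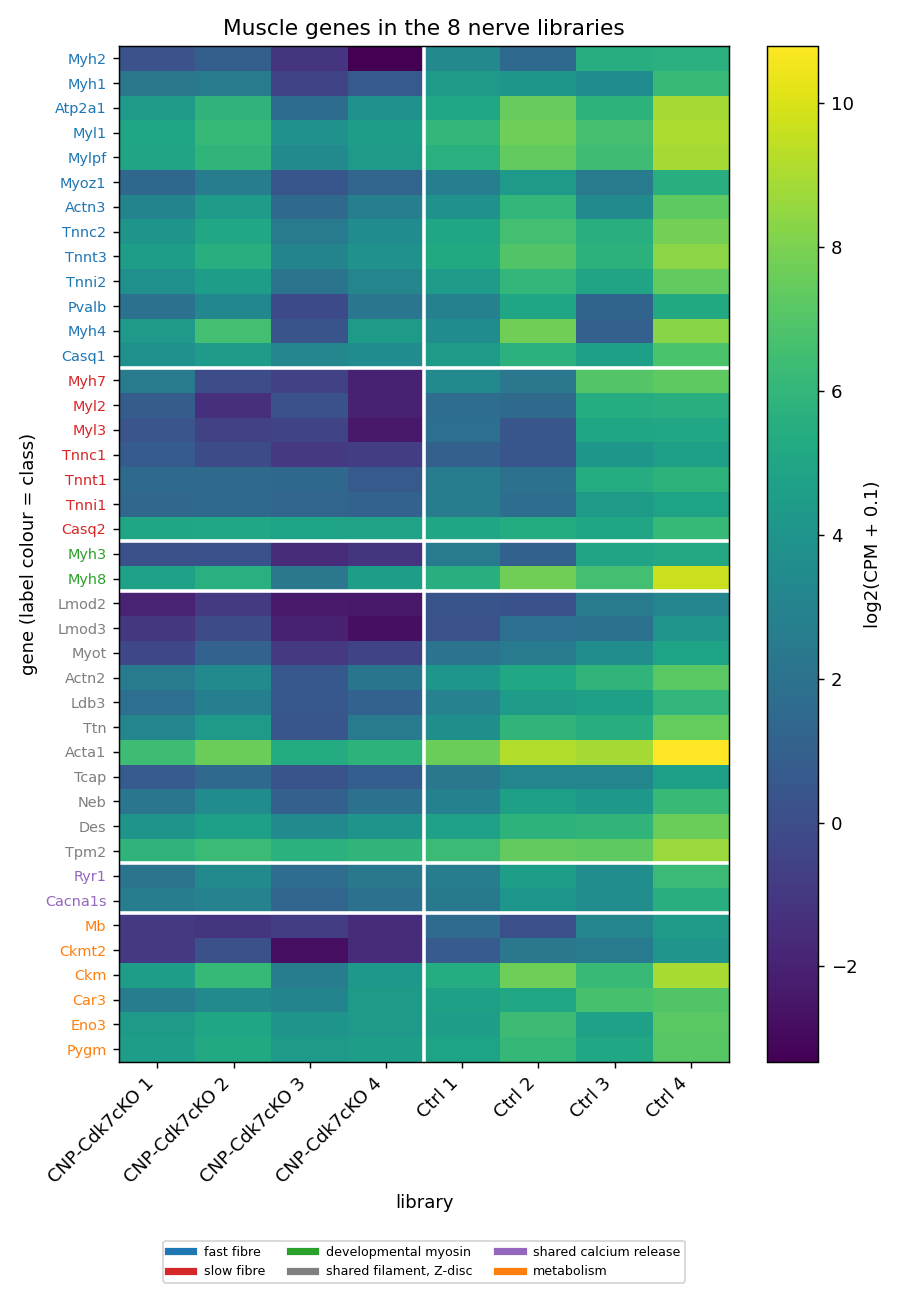
Level of each of the 41 muscle genes as log2(CPM + 0.1), by colour, with genes as rows grouped by class (label colour) and the 8 libraries as columns, CNP-Cdk7cKO left of the white line and Ctrl right of it. The Ctrl 4 column is the brightest for every gene, Myh4 is dark in Ctrl 3, and the slow genes Myh7, Myl2 and Myl3 are bright in Ctrl 3 and Ctrl 4.

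Filament and Z-disc genes that all fibre types share were called lower in CNP-Cdk7cKO for 11 of 11, with a median log2 fold change of -3.11, and groups that did not overlap for 9. Acta1, on chromosome 8 from 123891769 to 123894751 (GRCm38), encodes skeletal alpha-actin, the thin filament itself. Acta1 had 84.8, 195, 40.5 and 55.9 CPM in CNP-Cdk7cKO 1 to 4, against 200, 567, 478 and 1778 CPM in Ctrl 1 to 4. Each CNP-Cdk7cKO library was below each Ctrl library, although CNP-Cdk7cKO 2 came within a few CPM of Ctrl 1. The group means of Acta1 were 94.0 ± 69.6 CPM in CNP-Cdk7cKO and 756 ± 699 CPM in Ctrl (SD, n = 4 each), a log2 fold change of -3.01 ± 0.65 (SE; edgeR adjusted p = 0.0138), and with sex as a covariate it was -1.09 ± 0.76 (edgeR adjusted p = 0.553). Per kilobase of merged exons Acta1 was also the most abundant of the 41 genes, with means of 65.0 CPM per kb in CNP-Cdk7cKO and 523 CPM per kb in Ctrl.

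The other 10 genes of that class had log2 fold changes between -4.34 and -1.7. Lmod2 and Lmod3, leiomodins that help thin filaments form and elongate, fell the most. Lmod2 averaged 0.197 ± 0.161 CPM in CNP-Cdk7cKO and 4.09 ± 3.61 CPM in Ctrl (SD, n = 4 each; log2 fold change -4.34, edgeR adjusted p = 0.00635). Lmod2 passed the count filter only through Ctrl, so its call is not independent of that filter. Lmod3 had 0.0491 to 0.822 CPM in CNP-Cdk7cKO and 1.10 to 16.2 CPM in Ctrl. Actn2, the alpha-actinin of the Z-disc, had 1.40 to 10.6 CPM in CNP-Cdk7cKO and 16.9 to 146 CPM in Ctrl, and the groups did not overlap. Myot, Tcap and Ldb3, all Z-disc proteins, likewise did not overlap, with highest CNP-Cdk7cKO values of 2.08, 2.71 and 6.67 CPM and lowest Ctrl values of 4.10, 4.96 and 7.59 CPM. The giant filament genes Ttn and Neb overlapped between the groups, since CNP-Cdk7cKO 2 (19.2 CPM for Ttn and 11.1 CPM for Neb) was above Ctrl 1 (13.2 and 7.16 CPM). The smallest changes in the class belonged to Tpm2, a tropomyosin, and Des, the intermediate filament protein desmin, both also made by smooth muscle. Tpm2 had 50.9 to 79.5 CPM in CNP-Cdk7cKO and 79.8 to 402 CPM in Ctrl, and Des had 10.4 to 25.4 CPM in CNP-Cdk7cKO and 27.0 to 200 CPM in Ctrl.

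Fast fibre genes were lower for 10 of 13, with a median log2 fold change of -2.63, but the groups did not overlap for only 2, Myh1 and Myh2. The count fell to 2 without CNP-Cdk7cKO 1, 3 or 4, to 3 without Ctrl 2, to 6 without Ctrl 4, to 2 with limma-voom and to 0 with sex as a covariate. The fast troponins are the calcium switch of fast thin filaments, Tnnt3 binding tropomyosin, Tnni2 inhibiting and Tnnc2 sensing calcium. Tnnt3 had 23.8, 46.9, 8.08 and 14.6 CPM in CNP-Cdk7cKO 1 to 4, against 38.2, 125, 54.4 and 326 CPM in Ctrl 1 to 4. Tnni2 had 13.4, 24.2, 4.29 and 8.39 CPM in CNP-Cdk7cKO 1 to 4, against 21.1, 66.0, 29.8 and 169 CPM in Ctrl 1 to 4. Tnnc2 had 15.7, 34.1, 5.69 and 11.5 CPM in CNP-Cdk7cKO 1 to 4, against 32.8, 94.5, 46.3 and 228 CPM in Ctrl 1 to 4. All 3 genes gave the same order, with Ctrl 4 highest, Ctrl 2 next and CNP-Cdk7cKO 3 lowest, and CNP-Cdk7cKO 2 was above Ctrl 1 in each. Their log2 fold changes were -2.54, -2.51 and -2.58 (edgeR adjusted p = 0.0331, 0.03 and 0.0235), and with sex as a covariate none was called.

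The fast light chains Myl1 and Mylpf sit on the neck of the fast myosin heads. Myl1 had 32.3, 70.7, 14.2 and 23.2 CPM in CNP-Cdk7cKO 1 to 4, against 66.0, 204, 101 and 543 CPM in Ctrl 1 to 4. Mylpf had 29.7, 59.8, 10.3 and 19.3 CPM in CNP-Cdk7cKO 1 to 4, against 49.5, 171, 83.5 and 470 CPM in Ctrl 1 to 4. Both followed the fast troponins, with CNP-Cdk7cKO 2 again above Ctrl 1, and both had a log2 fold change of -2.7 (edgeR adjusted p = 0.0225 for Myl1 and 0.0276 for Mylpf). Of the fast calcium-handling genes, Atp2a1, the calcium pump of fast fibres, had 3.09 to 57.1 CPM in CNP-Cdk7cKO and 34.03 to 480 CPM in Ctrl (edgeR adjusted p = 0.0487). Pvalb, the calcium buffer parvalbumin, had 0.798 to 9.62 CPM in CNP-Cdk7cKO and 2.25 to 38.1 CPM in Ctrl and was not called (edgeR adjusted p = 0.116), and neither was Actn3, the alpha-actinin of fast fibres (edgeR adjusted p = 0.0648). Casq1, the calcium store protein of the fast sarcoplasmic reticulum, changed least among the fast genes, with 9.08 to 21.8 CPM in CNP-Cdk7cKO and 20.9 to 110 CPM in Ctrl (log2 fold change -1.92, edgeR adjusted p = 0.0256).

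The 3 adult fast myosin heavy chains did not behave alike. Myh4 encodes the IIb heavy chain of the fastest fibres, Myh1 the IIx chain and Myh2 the IIa chain. Myh4 had 19.7, 94.9, 1.15 and 20.9 CPM in CNP-Cdk7cKO 1 to 4, against 11.6, 210, 1.92 and 312 CPM in Ctrl 1 to 4. Ctrl 3 was near the bottom of all 8 libraries for Myh4 while Ctrl 4 and Ctrl 2 were at the top, so the groups overlapped widely and the gene was not called (log2 fold change -1.97 ± 1.20, SE; edgeR adjusted p = 0.333). With sex as a covariate its sign turned, to 1.56 ± 2.11 (edgeR adjusted p = 0.781), and CNP-Cdk7cKO 1, 2 and 4 were above Ctrl 1, the female control. Myh1 had 4.66, 5.32, 0.648 and 1.52 CPM in CNP-Cdk7cKO 1 to 4, against 19.8, 17.6, 11.6 and 74.5 CPM in Ctrl 1 to 4. Myh2 had 1.14, 1.84, 0.349 and 0 CPM in CNP-Cdk7cKO 1 to 4, against 9.73, 2.69, 44.5 and 49.0 CPM in Ctrl 1 to 4. For both genes every CNP-Cdk7cKO library was below every Ctrl library. No count of Myh2 was found in CNP-Cdk7cKO 4, where 3 counts would be 0.15 CPM. The log2 fold change was -3.35 ± 0.67 for Myh1 (edgeR adjusted p = 0.00946) and -4.99 ± 0.96 for Myh2 (edgeR adjusted p = 0.00751), and with sex as a covariate -2.71 ± 0.93 and -3.54 ± 1.29, with unadjusted p of 0.0156 and 0.02 in that edgeR fit.

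Slow fibre genes were lower for 6 of 7, with a median log2 fold change of -3.8, and their level split the control group into Ctrl 3 and Ctrl 4 on one side and Ctrl 1 and Ctrl 2 on the other. Myh7 encodes the slow (beta) myosin heavy chain. Myh7 had 5.38, 0.918, 0.599 and 0.147 CPM in CNP-Cdk7cKO 1 to 4, against 10.9, 4.71, 128 and 156 CPM in Ctrl 1 to 4. Ctrl 3 and Ctrl 4 were more than 10 times as high as any other library, while CNP-Cdk7cKO 1 was above Ctrl 2. Myh7 had the largest fold change of the 41 genes, -5.44 ± 1.19 on the log2 scale (edgeR adjusted p = 0.0139), and without Ctrl 3 and Ctrl 4 it was -2.15 (edgeR adjusted p = 0.186).

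Slow light chains showed the same split. Myl2 had 1.71, 0.29, 1.10 and 0.147 CPM in CNP-Cdk7cKO 1 to 4, against 3.24, 2.84, 42.1 and 47.7 CPM in Ctrl 1 to 4. Myl3 had 1.24, 0.58, 0.648 and 0.0981 CPM in CNP-Cdk7cKO 1 to 4, against 3.43, 1.29, 31.1 and 35.7 CPM in Ctrl 1 to 4. For both genes all CNP-Cdk7cKO libraries lay below all Ctrl libraries, by a small margin against Ctrl 1 and Ctrl 2 and a wide one against Ctrl 3 and Ctrl 4. The slow troponins, counterparts of the fast ones, were as follows. Tnnt1 had 2.85, 2.80, 2.54 and 1.47 CPM in CNP-Cdk7cKO 1 to 4, against 5.94, 3.77, 42.4 and 55.0 CPM in Ctrl 1 to 4. Tnni1 had 2.43, 2.90, 2.29 and 2.11 CPM in CNP-Cdk7cKO 1 to 4, against 6.00, 3.36, 20.3 and 28.7 CPM in Ctrl 1 to 4. Tnnc1 had 1.60, 0.87, 0.399 and 0.491 CPM in CNP-Cdk7cKO 1 to 4, against 1.90, 1.29, 17.9 and 25.3 CPM in Ctrl 1 to 4. Again Ctrl 3 and Ctrl 4 stood apart, and of these 3 genes the groups overlapped for Tnnc1, where CNP-Cdk7cKO 1 exceeded Ctrl 2. The log2 fold changes were -4.91 for Myl2, -4.81 for Myl3, -3.48 for Tnnt1, -2.59 for Tnni1 and -3.8 for Tnnc1 (edgeR adjusted p between 0.0127 and 0.0225). Without Ctrl 3 and Ctrl 4, a setting chosen after the data were seen, edgeR called 9 of the 41 genes lower. Over all genes tested, 2.58% were called lower in that setting. None of the 9 was a slow fibre gene, and 38 of the 41 had an unadjusted p under 0.05, without a background share.

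Casq2, the calsequestrin of cardiac and slow muscle, stood outside this pattern. Casq2 had 31.9, 34.5, 28.7 and 28.0 CPM in CNP-Cdk7cKO 1 to 4, against 31.8, 41.6, 33.0 and 69.4 CPM in Ctrl 1 to 4. Its 7 values other than Ctrl 4 lay between 28.0 and 41.6 CPM, and the groups overlapped. The means differed by less than 1.5-fold, at 30.8 ± 3.0 CPM in CNP-Cdk7cKO and 44.0 ± 17.5 CPM in Ctrl (SD, n = 4 each; log2 fold change -0.52 ± 0.21, edgeR adjusted p = 0.149).

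Myosins of developing muscle were both lower in CNP-Cdk7cKO. Myh3 is the embryonic heavy chain and Myh8 the neonatal (perinatal) one. Myh3 had 1.03, 1.06, 0.249 and 0.344 CPM in CNP-Cdk7cKO 1 to 4, against 5.45, 2.02, 30.7 and 36.8 CPM in Ctrl 1 to 4. Myh8 had 26.9, 49.98, 4.69 and 22.8 CPM in CNP-Cdk7cKO 1 to 4, against 46.3, 214, 94.4 and 818 CPM in Ctrl 1 to 4. The groups did not overlap for Myh3, whose high libraries were Ctrl 3 and Ctrl 4, while for Myh8 the high ones were Ctrl 4 and Ctrl 2 and CNP-Cdk7cKO 2 was above Ctrl 1. The log2 fold changes were -4.8 for Myh3 (edgeR adjusted p = 0.00735) and -3.49 for Myh8 (edgeR adjusted p = 0.025).

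Myh8 and Myh4 held most of the myosin heavy chain counts in most libraries. Myh8 made up 45.8%, 32.5%, 61% and 49.9% of the counts of the 6 genes in CNP-Cdk7cKO 1 to 4, against 44.6%, 47.5%, 30.4% and 56.6% in Ctrl 1 to 4. Myh4 made up 33.5%, 61.6%, 14.9% and 45.7% in CNP-Cdk7cKO 1 to 4, against 11.2%, 46.6%, 0.619% and 21.6% in Ctrl 1 to 4. Ctrl 3 was the exception, with Myh7 as its leading myosin. The Myh7 share was 9.15%, 0.596%, 7.79% and 0.322% in CNP-Cdk7cKO 1 to 4, against 10.5%, 1.04%, 41% and 10.8% in Ctrl 1 to 4. These shares rest on 154 counts in CNP-Cdk7cKO 3 and on 29650 in Ctrl 4, so the 95% Wilson interval of the Myh4 share was 10.2% to 21.4% in CNP-Cdk7cKO 3 and 21.1% to 22% in Ctrl 4, for counting error only. Ctrl 1 differed from the other libraries in its Myh1 share of 19.1%, against 3.33% to 8.44% in the CNP-Cdk7cKO libraries and 3.75% to 5.15% in Ctrl 2 to 4.

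**Figure D3:**
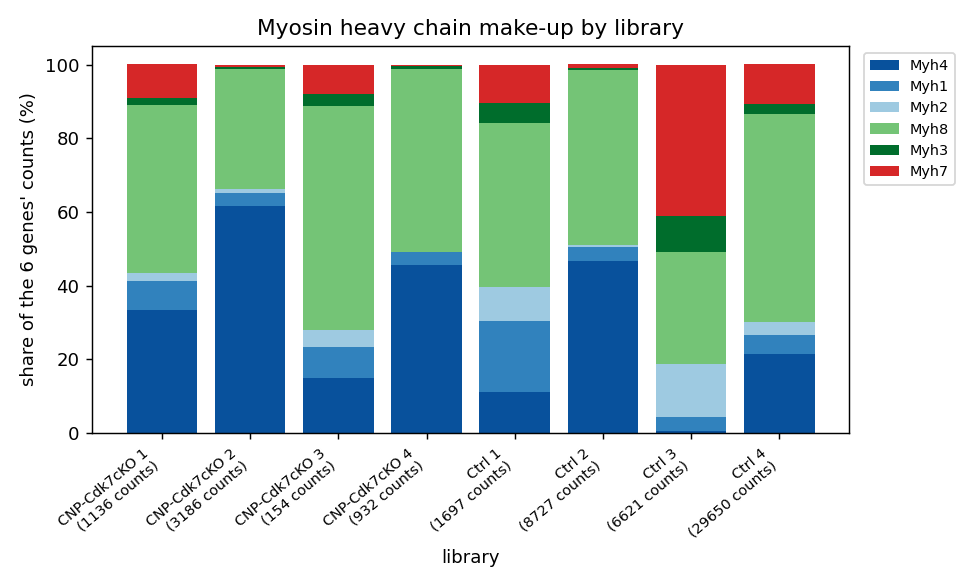
Share (%) of each myosin heavy chain gene in the summed counts of the 6 genes, as stacked bars by library, with CNP-Cdk7cKO 1 to 4 on the left, Ctrl 1 to 4 on the right and the summed count under each bar. Fast adult myosins are blue, developmental ones green and the slow one red. Myh7 takes 41% in Ctrl 3 and at most 10.8% elsewhere, and Myh4 takes 0.619% in Ctrl 3.

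The fibre type make-up of the muscle transcripts thus differed between libraries of one group. Ctrl 3 over Ctrl 2, the CPM ratio had a median of 0.451 over the 13 fast fibre genes, with 1 above 1 (Myh2, 16.6), and a median of 13.9 over the 7 slow fibre genes, with 6 above 1. Shared filament and Z-disc genes had a median ratio of 1.09 and ranged between 0.70 and 5.23. The extremes were Myh4 at 0.00916 and Myh7 at 27.1. Outside the fast and slow classes, Mb (8.79) and Car3 (3.07) were also higher in Ctrl 3, and Myh3 (15.2) went with the slow genes while Myh8 (0.441) went with the fast ones. These 2 libraries were both male and both control, so neither genotype nor sex separates them.

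**Figure D4:**
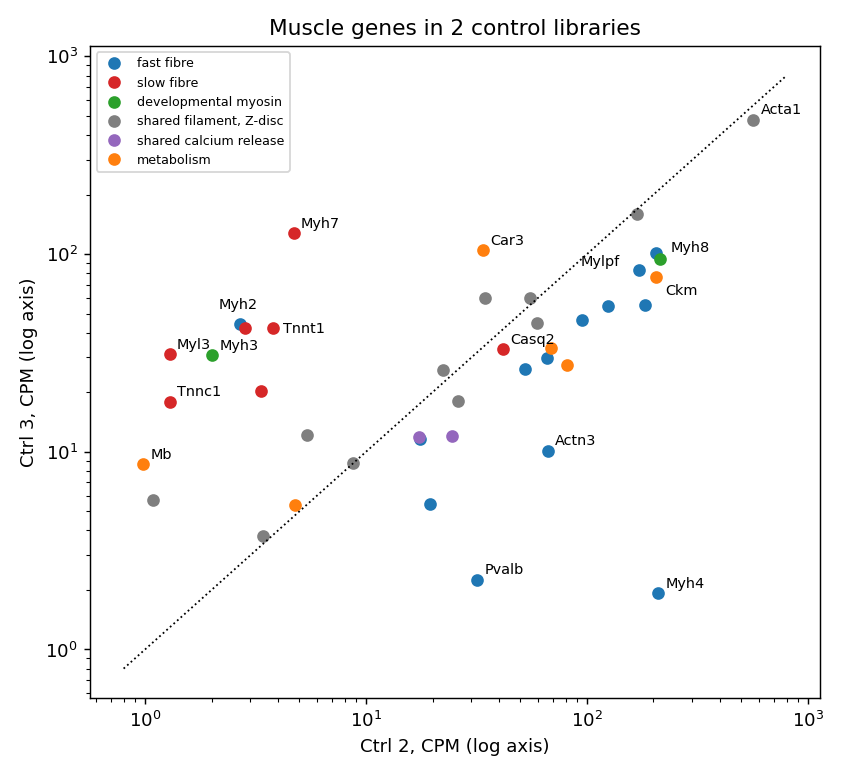
CPM of each of the 41 muscle genes in Ctrl 3 (vertical, log axis) against Ctrl 2 (horizontal, log axis), coloured by class, with equal levels on the dotted line. Slow fibre genes except Casq2 lie above the line and fast fibre genes except Myh2 below it, and Acta1 lies close to it.

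The knockout libraries also differed in make-up. CNP-Cdk7cKO 2 over CNP-Cdk7cKO 3, the median ratio was 5.82 over the fast fibre genes, all 13 above 1, and 1.20 over the slow fibre genes, 5 of 7 above 1. The ratio was 82.7 for Myh4 (1963 and 23 counts in CNP-Cdk7cKO 2 and 3) and 0.264 for Myl2 (6 and 22 counts), so both rest on few counts. The slow share of the summed fast and slow CPM was 20.1%, 8.62%, 37.1% and 19% in CNP-Cdk7cKO 1 to 4, against 16%, 4.51%, 40% and 12.2% in Ctrl 1 to 4, so both groups spanned a like range. Most of this share in the knockout libraries was Casq2. Left out, which was decided after the data were seen, the slow share was 7.52%, 1.81%, 10.9% and 3.12% in CNP-Cdk7cKO 1 to 4, against 8.64%, 1.37%, 37.3% and 10.4% in Ctrl 1 to 4.

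Ratios of slow to fast partner genes were highest in Ctrl 3. Myh7 counts over Myh4 counts were 0.274, 0.00968, 0.522 and 0.00704 in CNP-Cdk7cKO 1 to 4, against 0.937, 0.0224, 66.3 and 0.502 in Ctrl 1 to 4. Tnnt1 over Tnnt3 gave 0.12, 0.0597, 0.315 and 0.101 in CNP-Cdk7cKO 1 to 4, against 0.155, 0.0302, 0.781 and 0.168 in Ctrl 1 to 4. For both pairs the highest ratio was in Ctrl 3 and that of Ctrl 2 was the lowest control, and in the knockouts CNP-Cdk7cKO 3 was highest. The Myh7 ratio rests on 12 over 23 counts in CNP-Cdk7cKO 3 and on 3 Myh7 counts in CNP-Cdk7cKO 4. Among the knockouts, Tnni1 over Tnni2 and Myl2 over Mylpf were also highest in CNP-Cdk7cKO 3. Tnnc1 over Tnnc2 was not, at 0.0702 there and 0.102 in CNP-Cdk7cKO 1. Myl3 over Myl1 gave 0.0385, 0.0082, 0.0458 and 0.00424 in CNP-Cdk7cKO 1 to 4, against 0.0519, 0.00632, 0.308 and 0.0657 in Ctrl 1 to 4. The Myh7, Tnnt1 and Myl3 pairs overlapped between the groups.

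Both genes of excitation-contraction coupling were lower in CNP-Cdk7cKO, with overlapping groups. Ryr1, the calcium release channel of skeletal muscle, had 3.14 to 10.7 CPM in CNP-Cdk7cKO and 6.06 to 79.2 CPM in Ctrl (log2 fold change -2.4, edgeR adjusted p = 0.0477). Cacna1s, the voltage sensor that opens it, had 2.34 to 7.44 CPM in CNP-Cdk7cKO and 5.14 to 46.6 CPM in Ctrl (log2 fold change -2.05, edgeR adjusted p = 0.0419). In both, CNP-Cdk7cKO 2 was above Ctrl 1, and with sex as a covariate the log2 fold changes were near 0.

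Of 6 metabolic genes 4 were lower in CNP-Cdk7cKO, with a median log2 fold change of -2.73 over the 6. Ckm, on chromosome 7 from 19404776 to 19422841 (GRCm38), encodes the muscle creatine kinase that buffers ATP. Ckm had 23.0, 71.3, 6.33 and 18.1 CPM in CNP-Cdk7cKO 1 to 4, against 42.2, 205, 76.9 and 494 CPM in Ctrl 1 to 4. CNP-Cdk7cKO 2 was above Ctrl 1 and close to Ctrl 3, so the groups overlapped. The log2 fold change was -2.78 ± 0.79 (SE; edgeR adjusted p = 0.0448), and without Ctrl 4 it was -1.86 (edgeR adjusted p = 0.108). Mb, the oxygen store myoglobin, had 0.245 to 0.499 CPM in CNP-Cdk7cKO and 0.982 to 21.8 CPM in Ctrl, and Ckmt2, the mitochondrial creatine kinase, had 0.0499 to 1.02 CPM in CNP-Cdk7cKO and 1.59 to 16.6 CPM in Ctrl. Car3, a carbonic anhydrase of slow muscle and fat, had 5.95 to 20.4 CPM in CNP-Cdk7cKO and 25.7 to 125 CPM in Ctrl. These 3 did not overlap between the groups. Eno3, the muscle enolase, and Pygm, the muscle glycogen phosphorylase, kept a level above 15 CPM in every library and were not called (edgeR adjusted p = 0.0601 and 0.0655).

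**Figure D5:**
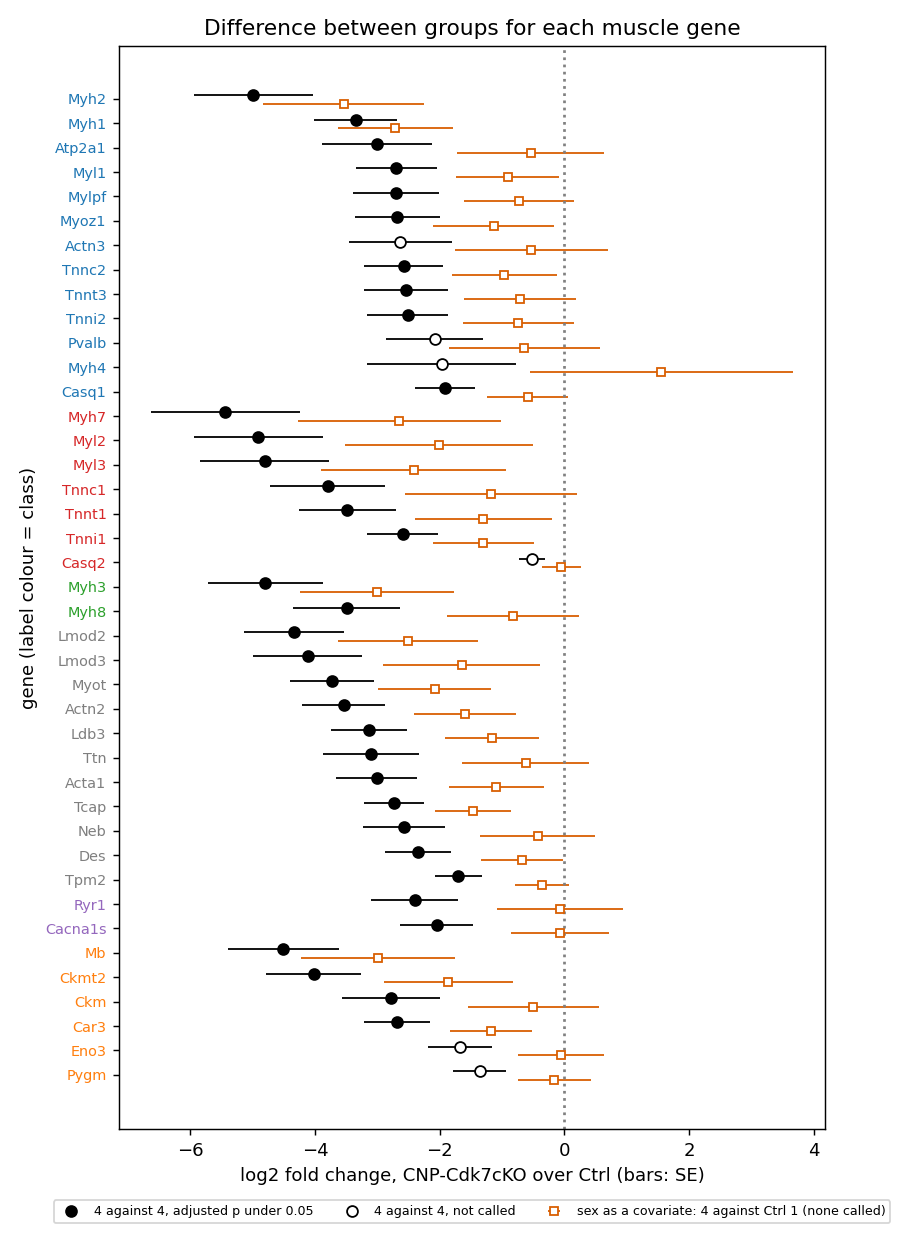
Log2 fold change (CNP-Cdk7cKO over Ctrl, bars are SE) of each of the 41 muscle genes, grouped by class (label colour). Circles are the comparison of 4 with 4 libraries, filled where the edgeR adjusted p is under 0.05 (35 genes), and squares are the fit with sex as a covariate, in effect 4 CNP-Cdk7cKO libraries against Ctrl 1, where 0 genes are called and the median is -0.96.

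Other muscle genes, from lists separate from the 41, were mostly lower as well. Sex is confounded with group for these lists too, and with sex as a covariate edgeR called 1 gene of the sarcomere and scaffold list (Srpk3) and 0 of the triad, energy, endplate and precursor lists, with medians of -1.15, -0.47, -0.69, -0.4 and -1.3. In that fit, genes at an unadjusted p under 0.05 numbered 2 in the sarcomere list, 1 in the endplate list and 0 in the other 3 lists. Against all 4 controls, of 23 further sarcomere and scaffold genes tested, 20 were lower in CNP-Cdk7cKO and 0 higher, with a median log2 fold change of -2.93. Mybpc1, a myosin-binding protein of the thick filament, had 0.748 to 4.74 CPM in CNP-Cdk7cKO and 12.1 to 107 CPM in Ctrl, and the actin-binding Xirp2 and the thin filament protein Nrap had log2 fold changes of -3.51 and -3.2 (edgeR adjusted p = 0.00635 and 0.00743). Srpk3, a splicing kinase known from muscle, differed from the rest in its small and steady change, at 21.8 to 25.8 CPM in CNP-Cdk7cKO and 34.4 to 38.6 CPM in Ctrl (log2 fold change -0.64 ± 0.06, SE; edgeR adjusted p = 0.000203). Its control values were 36.0, 34.4, 38.6 and 38.2 CPM in Ctrl 1 to 4, without the high Ctrl 4 seen for the 41 genes.

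Triad and excitability genes were lower for 9 of 14 and higher for 0, with a median log2 fold change of -2.04. Sln, a regulator of the calcium pump, and Trdn, which anchors calsequestrin, had log2 fold changes of -3.02 and -3.1 (edgeR adjusted p = 0.0194 and 0.0226). The channel subunit Kcnj11 and the junctophilin Jph1 were also lower, with log2 fold changes of -3.05 and -1.86 (edgeR adjusted p = 0.0186 and 0.0208). Muscle energy genes were lower for 10 of 13 and higher for 0, with a median of -2.75, among them the cytochrome oxidase subunits Cox8b and Cox6a2, the fatty acid binding protein Fabp3 and the muscle ADP-ribosyltransferase Art1 (log2 fold changes -2.87, -2.85, -2.75 and -3.08).

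Genes of the muscle side of the synapse and of muscle precursors were less often abundant enough to test. At the endplate 3 of 7 tested genes were lower and 0 higher, with a median log2 fold change of -0.34, and these were the acetylcholine receptor subunits Chrng, the fetal one, Chrna1 and Chrnb1. Chrng had 0.399 to 0.638 CPM in CNP-Cdk7cKO and 1.24 to 2.58 CPM in Ctrl (log2 fold change -1.77 ± 0.28, SE; edgeR adjusted p = 0.00297). Among muscle precursor genes 6 of 13 had enough counts, and 3 of these were lower (median log2 fold change of the 6, -2.84), the myogenic transcription factors Myod1, Myog and Myf6. Myod1 and Myf6 had at most 0.483 and 0.435 CPM in CNP-Cdk7cKO, so they passed the count filter only through Ctrl. Genes kept this way lean toward high Ctrl values, so these calls and the median are not independent of the filter. Myog had 0.0998 to 0.834 CPM in CNP-Cdk7cKO and 1.35 to 11.9 CPM in Ctrl, highest in Ctrl 4 as for the 41 genes.

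Markers of other cells were read in the same libraries, to set the muscle genes beside them. Calls here are from the 4 against 4 comparison, in which sex is confounded with group. Over all genes tested 6.6% were called lower and 5.07% higher, so a single call in a short list is not read as a result about the list. Median log2 fold changes were -1.56 for cardiac, -0.01 for smooth muscle, -0.47 for adipocyte, -0.03 for tendon and -0.57 for red cell genes. With sex as a covariate, in effect against Ctrl 1, they were -0.42, 0.27, 0.43, -0.26 and 0.59 in the same order. Of 4 cardiac genes tested 1 was lower, Actc1, an actin that developing skeletal muscle also makes, and the heart hormone genes Nppa and Nppb, named after their values were seen, had at most 0.0612 CPM in any library. Smooth muscle and mural genes summed to 1435 to 1543 CPM in CNP-Cdk7cKO and 1497 to 1643 CPM in Ctrl. Of 12 genes 1 was called, Smtn (log2 fold change -0.14, edgeR adjusted p = 0.0218), with a list median of -0.01. Smtn alone had 890 to 919 CPM in CNP-Cdk7cKO and 971 to 1017 CPM in Ctrl, the largest part of these sums. From library to library within a group the sums did not follow Smtn. Adipocyte genes, the most abundant being Lpl and Fabp4, had 0 calls in either direction by edgeR among 6 tested, with 1 at an unadjusted p under 0.05. Of 4 tendon genes tested 1 was higher (Thbs4, log2 fold change 0.36, edgeR adjusted p = 0.00851). Red cell genes, with 0 of 7 called by edgeR in either direction and led by the haemoglobin genes Hbb-bs and Hba-a2, which have near-identical copies, summed to 984, 1103, 1469 and 933 CPM in CNP-Cdk7cKO 1 to 4, against 745, 2017, 1737 and 2164 CPM in Ctrl 1 to 4. Ctrl 1 thus had the lowest control sum for red cell as for muscle transcripts. The knockouts differed, as CNP-Cdk7cKO 3 had their highest red cell sum and their lowest muscle sum. The part of these markers in the muscle result was not tested.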

How the data were processed

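RNA from mouse sciatic nerves was extracted on columns with a DNase step, and stranded libraries of polyadenylated RNA were made from 250 ng, per the labels' protocols. The authors deposited estimated counts per gene, made with STAR and Salmon on GRCm38 per the submitters' processing notes. Their settings and versions are not given in the labels. Fractions were present in 8.29% of values, so all values were rounded to whole numbers, a change of no more than 6.49e-05% in any library total. Symbols matched 55141 of 55487 Ensembl identifiers.

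Libraries held 16897242 to 21527891 estimated counts. Replicates of a group differed by more than counting noise, the chi-square divided by its degrees of freedom being 3.86 to 17.6. Low genes were removed with filterByExpr (at least 10 counts and a total of 15), which a gene can pass through a single group. The genes kept were scaled by trimmed mean of M values and compared with the quasi-likelihood test of edgeR 4.0.16 in R 4.3.3. Calls were made at a Benjamini-Hochberg adjusted p under 0.05 over 15056 genes. No p-value was computed for sums over genes.

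Alternatives were RLE factors, scaling without muscle genes, no filter, at least 1 CPM in 4 libraries, DESeq2 1.42.0, quality-weighted voom in limma 3.58.1, a block for replicate number, sex as a covariate, female libraries alone and each library left out. Leaving out Ctrl 3 and Ctrl 4 together, and Casq2 from the slow sum, were added after the data were seen. Sex was called from Xist (above 10 CPM) and 4 Y-linked genes.

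The 41 genes, the classes and the other lists were chosen with earlier results of these data known. Levels in every library are given for Acta1, Ckm, the myosins, troponins and light chains, and any of the 41 genes with means under 1.5-fold apart. From each other list the text names up to 4 called genes, by smallest p, or the 2 most abundant where none was called, and others named are marked. Exon lengths and coordinates are from GENCODE M21 on GRCm38, and promoter windows are from RefSeq on GRCm38.p6. No protein sequences were used here.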

Additional observations from a re-analysis of the deposited data

Results flagged for a closer look

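Of 96 sets of 4 libraries checked (genes or sums within a group), 3 had a library far from the other 3. Many of the genes rise and fall together between libraries, so the sets are not independent and no rate is read from this count. Ctrl 4 was highest for all 41 genes but was flagged for 1 set only, so the check does not show that no library stands apart. Myh1 in Ctrl had 74.5 CPM in Ctrl 4, with 19.8 CPM as the next highest. Myh7 in CNP-Cdk7cKO had 5.38 CPM in library 1, with 0.918 CPM next. Lmod2 in CNP-Cdk7cKO had 0.435 CPM in library 2, with 0.155 CPM next.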

How the results depend on the processing

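Of the alternatives, sex, the choice of libraries and the tool moved the counts the most. Genes lower in CNP-Cdk7cKO numbered 994 in all, 35 among the 41 muscle genes, 10 fast, 6 slow and 2 developmental. With sex as a covariate these were 166, 0, 0, 0 and 0 (78 higher in all); in female libraries alone 77, 1, 0, 0 and 0 (37 higher); without Ctrl 3 and Ctrl 4, added after the data were seen, 397, 9, 2, 0 and 1 (302 higher); and with limma-voom 10 muscle genes, 2 fast, 0 slow and 0 developmental. Leaving out each library in turn gave 654 to 860 genes lower, 468 to 656 higher, 19 to 38 muscle genes, 2 to 12 fast, 4 to 6 slow and 1 to 2 developmental. The count was 19 without CNP-Cdk7cKO 1, 3 or 4, and 24 without Ctrl 2. The median log2 fold change of -2.73 was -0.96 with sex as a covariate and in female libraries, both of which set the knockouts against Ctrl 1, -1.93 without Ctrl 3 and Ctrl 4, and -3.39 to -2.03 with 1 library left out. Myh4, at -1.97, took the other sign at 1.56 with sex as a covariate and in female libraries (edgeR adjusted p = 0.781 and 0.719). The mean slow share of 21.2% in CNP-Cdk7cKO was 5.85% without Casq2. The summed level ranged over 411 to 679 CPM in CNP-Cdk7cKO and 1975 to 4414 CPM in Ctrl with 1 library left out. The cause of these changes was not tested, apart from fewer libraries entering a fit. With the replicate number as a block 36 muscle genes were lower, 33 of them among the 35; same-numbered libraries had correlations of 0.009 to 0.127, so the numbers were not taken as pairs. Counts of the muscle genes kept within 1.5 times under the other scalings, filters and DESeq2. Calls for genes near the threshold are limited by the 4 libraries per group and the spread of Ctrl, and low genes by counting, since 3 counts are 0.139 to 0.178 CPM.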
